A study of Equus caballus with 10 samples.

Results

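The plasminogen activators and serpin inhibitors of equine tenocytes were followed as a set of 9 genes fixed by symbol: PLAU, PLAUR, PLAT, SERPINE2, SERPINB2, SERPINF1, SERPINI1, F3 and TFPI2. Of these 9 genes, 8 have a row among the 29196 genes of the deposited table, and SERPINE2 is not analysed here. The cells were primary tendon cells of 5 horses, isolated from the superficial digital flexor tendon and grown for 14 days as 3D cultures in collagen gels. All 10 libraries came from cells that received PF-06650833 daily at 100 nM, a compound that blocks IRAK-4, a kinase below the IL-1 receptor. In 5 libraries this was the only treatment (PF), and in the other 5 the cells of the same donors also received IL-1β at 17 ng/ml every 3 to 4 days (PF + IL-1β). Lines 090811, 130911, 180412, 250718B and CD are called donors 1 to 5. Both groups carry the inhibitor, so the comparison gives the difference that IL-1β made in its presence, and cultures without the inhibitor were not used here. Each line came from 1 donor and counts as 1 biological replicate.

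Plasminogen is a circulating zymogen that is cut to plasmin, a broad serine protease that dissolves fibrin and can activate matrix metalloproteinases. The cut is made by urokinase (PLAU), which acts mainly at the cell surface on its receptor (PLAUR), and by tissue plasminogen activator (PLAT), which acts mainly on fibrin. Serpins are suicide inhibitors that trap serine proteases. SERPINB2 inhibits urokinase, SERPINI1 (neuroserpin) inhibits tissue plasminogen activator, and SERPINF1 (pigment epithelium-derived factor) is a secreted serpin that does not inhibit proteases and is known for blocking blood vessel growth. F3 (tissue factor) is the cell surface protein that starts clotting, and TFPI2 is a Kunitz-type inhibitor, laid down in the matrix, that blocks plasmin among other proteases.

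The values are log2 expression, normalized between libraries by the authors. They were taken to be variance-stabilized from their shared lowest value of 3.43, which was read as the value of 0 reads. Differences between low values are compressed on this scale, so approximate normalized counts, obtained by reversing the transformation, are given beside some of them. These summed to between 34358354 and 38755204 per library. Over 17992 tested genes, a gene counted as differentially expressed where its adjusted p was under 0.05 and its log2 fold change (Log2FC) was at least 1 in size. Of the 11 tenocyte markers in the table, COL1A1 and COL1A2 had the highest levels, and TNMD was at the value of 0 reads in every library. SCX (Log2FC -3.24), MKX (-2.85), COMP (-3.63) and TNC (-2.04) were differentially expressed and lower with PF + IL-1β (adjusted p between 6.11e-04 and 0.0135 from limma). COL1A1 (-1.38) and COL1A2 (-1.28) were called with the donor as a block (adjusted p of 0.0147 and 0.0169 from limma, and 0.0682 and 0.0614 without it). This made 6 of 10 tested markers, against 8.26% of all tested genes with the block. DCN had a Log2FC of 1.01 and was higher in 5 of 5 donors, and LUM had a Log2FC of 0.33, and neither was called. The summed normalized counts of these 11 markers lay between 971171 and 1564035 with PF and between 300468 and 1275842 with PF + IL-1β. Those of 11 leukocyte markers lay between 285 and 2044 and between 352 and 2148, with AIF1, CD3E and TYROBP at 0 throughout and PTPRC at no more than 3.09. Those of 8 endothelial markers did not exceed 51.5 in any library. For 7 pericyte and smooth muscle markers the ranges were 27802 to 199028 and 38326 to 82374, and for 6 epithelial markers 611 to 2581 and 43.1 to 444, with EPCAM and KRT5 at 0. Of all these other markers, CD68 was differentially expressed and higher (Log2FC 1.70), and RGS5 (-1.96), DES (-2.98), CDH1 (-2.22) and KRT19 (-4.56) were differentially expressed and lower. LAPTM5, a leukocyte marker (-1.67, lower in 5 of 5 donors), and ACTA2, a smooth muscle marker (-1.01, lower in 4 of 5), were called with the donor block alone (adjusted p of 0.0255 and 0.0334 from limma). Their part in the results below was not tested, and in bulk samples fewer cells of a type and less RNA per cell cannot be told apart.

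All 8 genes were above the value of 0 reads in all 10 libraries and were tested. With PF + IL-1β, 3 of the 8 (37.5%) were differentially expressed, against 6.68% of all tested genes. PLAUR and SERPINB2 rose, where 3.11% of tested genes were higher, and SERPINF1 fell, where 3.57% were lower. When limma took the donor as a block, TFPI2 was called as well, so that 4 of 8 were differentially expressed, against 8.26% of tested genes. Of these, 3 were higher, against 4.01%, and 1 was lower, against 4.25%. The groups did not overlap for 2 of the 8 genes, PLAUR and SERPINF1, against 12.7% of tested genes (6.29% higher and 6.41% lower). PLAU, PLAUR, SERPINB2 and TFPI2 were higher in all 5 donors and SERPINF1 was lower in all 5, where 32.7% of tested genes differed in 1 direction in all donors (16.0% higher and 16.8% lower). The median Log2FC was 0.46 over the 8 genes and -0.01 over all tested genes.

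**Figure D1:**
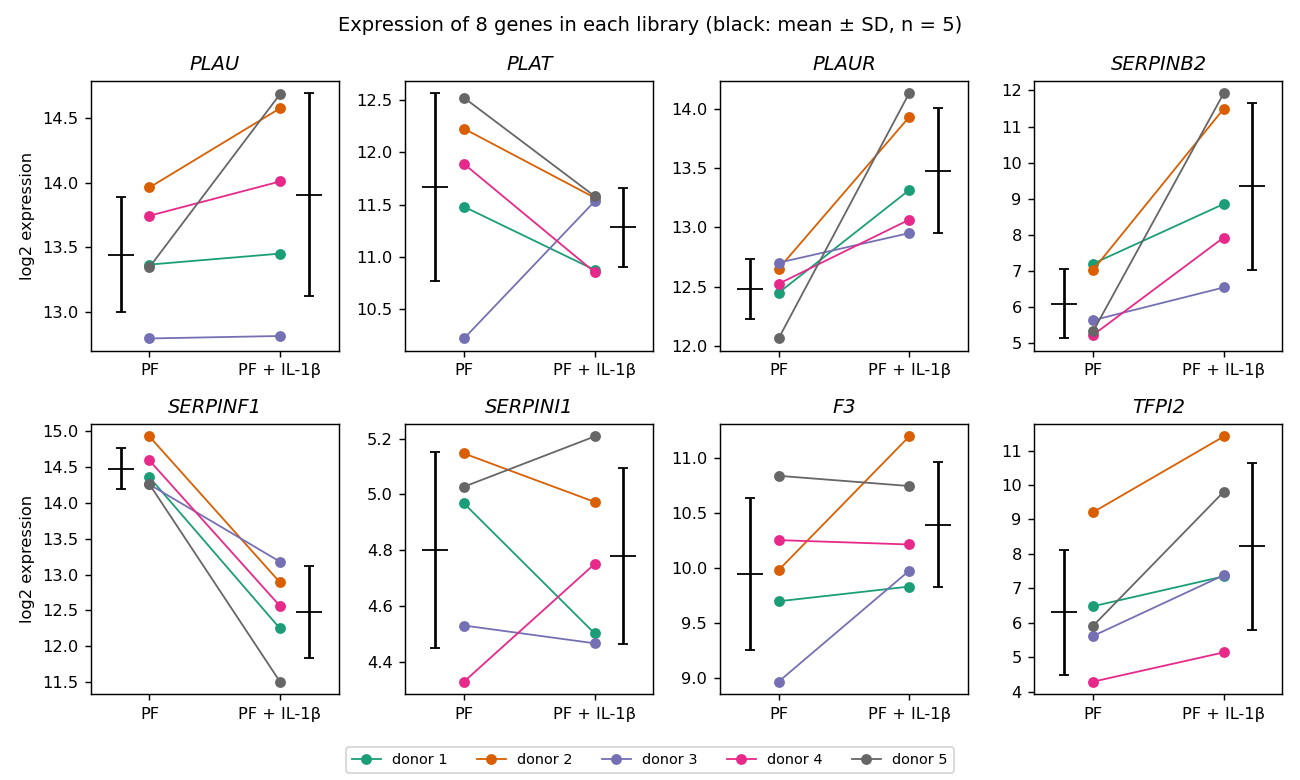
Log2 expression (vertical axes, each with its own range) of 8 genes with PF and with PF + IL-1β. Each colour is a donor, lines join the libraries of a donor, and black marks are the mean ± SD of 5 libraries. Every PLAUR library with PF + IL-1β lies above every PF library, every SERPINF1 library lies below, and PLAT is higher in donor 3 and lower in the other 4 donors.

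PLAU, the urokinase gene, was at 13.36, 13.96, 12.79, 13.74 and 13.34 in donors 1 to 5 with PF. It was at 13.45, 14.58, 12.81, 14.01 and 14.69 in the same donors with PF + IL-1β. Donor 3 was the lowest in both groups, and the groups overlapped. The mean was 13.44 ± 0.45 (SD, n = 5) with PF and 13.91 ± 0.79 (SD, n = 5) with PF + IL-1β. PLAU was not differentially expressed (Log2FC 0.47, 95% confidence interval -0.31 to 1.24, adjusted p = 0.420 from limma). The difference within a donor was between 0.02 in donor 3 and 1.34 in donor 5, and 70.5% of the sum of squares over the libraries lay between donors. The donor block narrowed the interval to between 0.02 and 0.91 and left the adjusted p at 0.123. The Log2FC was 0.30 without the PF library of donor 3 or the PF + IL-1β library of donor 2, 0.27 without the PF + IL-1β library of donor 5, 0.25 without donor 5 and 0.74 without the PF + IL-1β library of donor 3.

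PLAT, the gene of tissue plasminogen activator, was at 11.48, 12.23, 10.22, 11.89 and 12.52 with PF in donors 1 to 5. With PF + IL-1β it was at 10.87, 11.57, 11.53, 10.85 and 11.58. In 4 donors the difference on the log2 scale was between -1.04 and -0.61, whereas in donor 3, the lowest of all libraries with PF, it was higher by 1.31. PLAT was not differentially expressed (Log2FC -0.39, 95% confidence interval -1.21 to 0.44, adjusted p = 0.543 from limma). Without donor 3 its Log2FC was -0.81 (adjusted p = 0.0628, and 0.00395 with the donor block), still under the minimum fold change. It was -0.75 without the PF library of donor 3, -0.25 and -0.17 without those of donors 2 and 5, and -0.22 and -0.25 without donors 4 and 5. The spread of PLAT between the libraries was 0.90 with PF and 0.38 with PF + IL-1β (SD, n = 5).

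PLAUR, the gene of the urokinase receptor, had the smallest spread of the 8 genes with PF, at 12.45, 12.65, 12.70, 12.52 and 12.06 in donors 1 to 5. It rose to 13.31, 13.93, 12.95, 13.06 and 14.13 with PF + IL-1β. The lowest library with PF + IL-1β, of donor 3, was above the highest with PF, also of donor 3. Means were 12.48 ± 0.25 and 13.48 ± 0.53 (SD, n = 5), with mean normalized counts of 5745 and 12016. The Log2FC was 1.00 (standard error 0.23, 95% confidence interval 0.49 to 1.51, adjusted p = 0.0145 from limma, and 0.0224 with the donor block). It lies at the minimum fold change, so the call was lost under quantile normalization (0.96) and without the PF library of donor 1 (0.99) or 5 (0.90) or the PF + IL-1β library of donor 2 (0.89) or 5 (0.84). It was also lost without donor 1, 2 or 5, where adjusted p was between 0.0588 and 0.0631. With the donor block the call was kept in 2 of 5 fits without 1 donor. There it was lost without donor 1 (adjusted p = 0.0705 from limma), donor 2 (0.0801) and donor 5 (0.0320, Log2FC 0.73).

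Since urokinase acts on its receptor, the log2 difference PLAU minus PLAUR was followed in each library, in which gene length cancels between groups. It was 0.96 ± 0.51 with PF and 0.43 ± 0.43 with PF + IL-1β (SD, n = 5), and the groups overlapped. Within donors it was lower with PF + IL-1β in 5 of 5, with changes between -0.78 and -0.23. PLAU minus PLAT was higher by 0.85 ± 1.33 (SD, n = 5 donors), and in 4 of 5 donors, with a change of -1.29 in donor 3. These differences between genes were not tested.

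SERPINB2, the intracellular and secreted inhibitor of urokinase, had the largest rise of the 8 genes. With PF it was at 7.20, 7.03, 5.63, 5.22 and 5.32 in donors 1 to 5, which is 126, 110, 30.3, 18.9 and 21.4 normalized counts. With PF + IL-1β it was at 8.85, 11.49, 6.54, 7.92 and 11.92, or 441, 2859, 72.6, 222 and 3857 normalized counts. Donors 2 and 5 were far above the other 3 with PF + IL-1β, and the library of donor 3 stayed below those of donors 1 and 2 with PF, so the groups overlapped. The normalized count was 2.40 times higher in donor 3, 3.50 in donor 1, 11.7 in donor 4, 26.0 in donor 2 and 180 in donor 5. Means were 6.08 ± 0.96 and 9.35 ± 2.31 (SD, n = 5), a Log2FC of 3.26 (standard error 0.96, 95% confidence interval 1.16 to 5.36, adjusted p = 0.0406 from limma, and 0.0189 with the donor block). The call was lost without a mean-variance trend (adjusted p = 0.0519) and without any 1 library other than those of donors 3 and 4 with PF + IL-1β (0.0514 to 0.0962). In fits without 1 donor it was kept in 1 of 5, that without donor 3, and adjusted p from limma reached 0.163 without donor 5. With the donor block the call was lost without donor 2 (0.0712) and kept in 4 of 5 such fits.

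SERPINF1, the gene of pigment epithelium-derived factor, was at 14.36, 14.93, 14.26, 14.59 and 14.26 with PF in donors 1 to 5 and at 12.25, 12.89, 13.18, 12.56 and 11.50 with PF + IL-1β. Every library with PF + IL-1β was below every library with PF. The mean fell from 14.48 ± 0.29 to 12.48 ± 0.65 (SD, n = 5), a Log2FC of -2.00 (standard error 0.28, 95% confidence interval -2.61 to -1.39, adjusted p = 0.00114 from limma), which is 4.01-fold lower. The mean normalized count was 23222 with PF and 6119 with PF + IL-1β. The difference was smallest in donor 3 (-1.08) and largest in donor 5 (-2.76), and 83.4% of the sum of squares lay between the groups, the highest share of the 8 genes. SERPINF1 was called in all 10 fits without 1 library and all 5 without 1 donor.

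SERPINI1, the neuroserpin gene, was near the lower end of the scale in both groups, between 4.33 and 5.15 with PF and between 4.47 and 5.21 with PF + IL-1β. These values correspond to between 4.29 and 18.5 normalized counts. It was higher with PF + IL-1β in 2 donors and lower in 3, and was not differentially expressed (Log2FC -0.02, 95% confidence interval -0.51 to 0.47, adjusted p = 0.965 from limma).

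**Figure D2:**
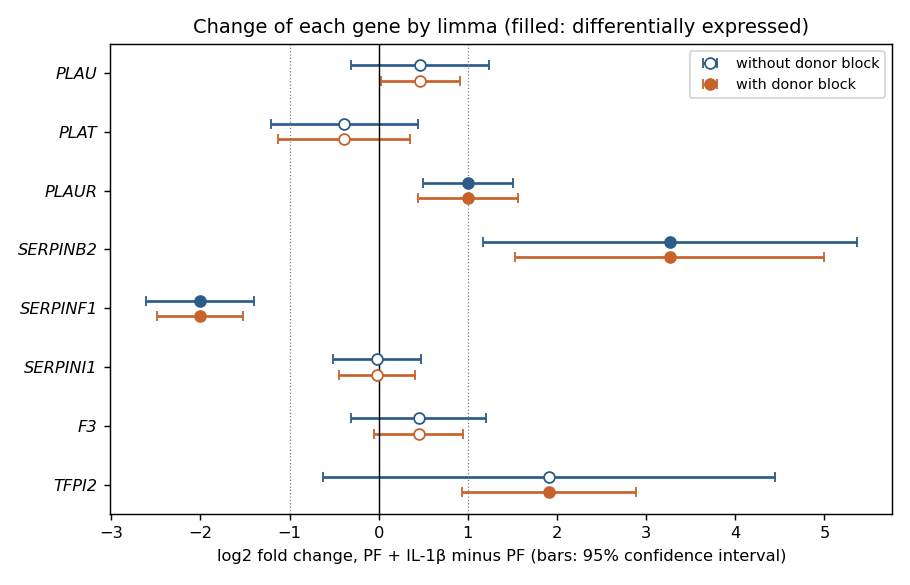
Log2FC of PF + IL-1β against PF for 8 genes by limma, without and with the donor as a block, with 95% confidence intervals. Filled points were differentially expressed, and dotted lines mark a Log2FC of -1 and 1. SERPINF1 lies at -2.00 with intervals below 0, and the interval of TFPI2 spans 0 without the block and runs from 0.93 to 2.89 with it.

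F3, the tissue factor gene, was at 9.70, 9.98, 8.96, 10.25 and 10.84 with PF in donors 1 to 5. With PF + IL-1β it was at 9.83, 11.20, 9.98, 10.21 and 10.75. It was higher by 1.22 in donor 2 and by 1.01 in donor 3, and within 0.13 of the PF library in the other 3 donors. F3 was not differentially expressed (Log2FC 0.45, 95% confidence interval -0.32 to 1.21, adjusted p = 0.435 from limma, and 0.175 with the donor block). The Log2FC was 0.20 without the PF library of donor 3, 0.24 without the PF + IL-1β library of donor 2, 0.25 without donor 2 and 0.67 without the PF library of donor 5. Between donors lay 65.9% of its sum of squares.

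TFPI2, the Kunitz-type inhibitor, had the widest spread of the 8 genes in both groups. With PF it was at 6.48, 9.21, 5.62, 4.30 and 5.92 in donors 1 to 5, from 3.99 normalized counts in donor 4 to 572 in donor 2. With PF + IL-1β it was at 7.35, 11.41, 7.38, 5.15 and 9.80, from 17.1 normalized counts in donor 4 to 2694 in donor 2. Donor 2 was the highest and donor 4 the lowest in both groups, so the groups overlapped although every donor was higher with PF + IL-1β, by between 0.85 and 3.88. Means were 6.31 ± 1.81 and 8.22 ± 2.43 (SD, n = 5). Without the donor block the gene was not differentially expressed (Log2FC 1.91, standard error 1.15, 95% confidence interval -0.63 to 4.45, adjusted p = 0.303 from limma), and the Log2FC was 1.11 without the PF + IL-1β library of donor 2. With the block the standard error was 0.42 and the adjusted p 0.0166, since 73.3% of the sum of squares lay between donors and 6.78% remained beside group and donor. That call was lost without donor 2 (adjusted p = 0.0624) and kept without any other donor.

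The log2 difference F3 minus TFPI2 was lower with PF + IL-1β in 5 of 5 donors, with changes between -3.98 and -0.73. It was 3.64 ± 1.97 with PF and 2.18 ± 1.99 with PF + IL-1β (SD, n = 5), with overlapping groups and no test. Donor 5 gave the largest difference, and without it the mean was -0.84. The scale compresses low values of TFPI2, so these differences are not ratios of counts where TFPI2 is low. In donor 4 the change was -0.89, while the normalized count with PF + IL-1β was 0.97 times that with PF for F3 and 4.29 times for TFPI2.

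**Figure D3:**
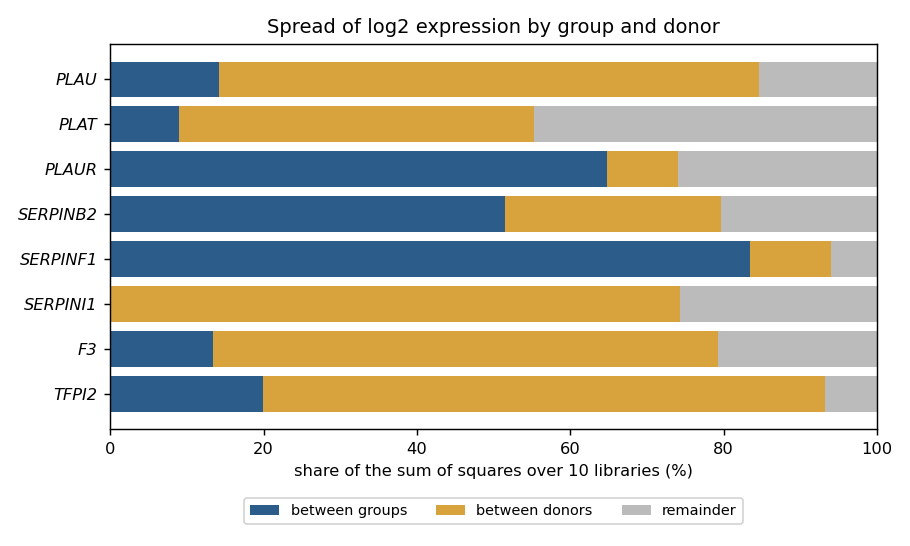
Share of the sum of squares of log2 expression over 10 libraries that lay between the groups, between the donors and in the remainder, for 8 genes. The share between groups was 83.4% for SERPINF1 and 64.8% for PLAUR, and the share between donors was 73.3% for TFPI2 and 70.5% for PLAU.

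Donor 5 had the largest difference for PLAU, PLAUR, SERPINB2, TFPI2 and SERPINF1, and donor 2 had the second largest for the first 4. Donor 3 had the smallest difference for PLAU, PLAUR, SERPINB2 and SERPINF1. For TFPI2 donor 3 had the third largest difference (1.76), and for F3 it had the second largest difference (1.01), while donor 5 had the lowest (-0.09). These ranks are on the log2 scale. The normalized count of TFPI2 was 2.05, 4.71, 4.87, 4.29 and 21.35 times higher in donors 1 to 5, so its order below donor 5 depends on the scale. The libraries of a donor share its cells, and 5 donors are too few for a correlation.

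**Figure D4:**
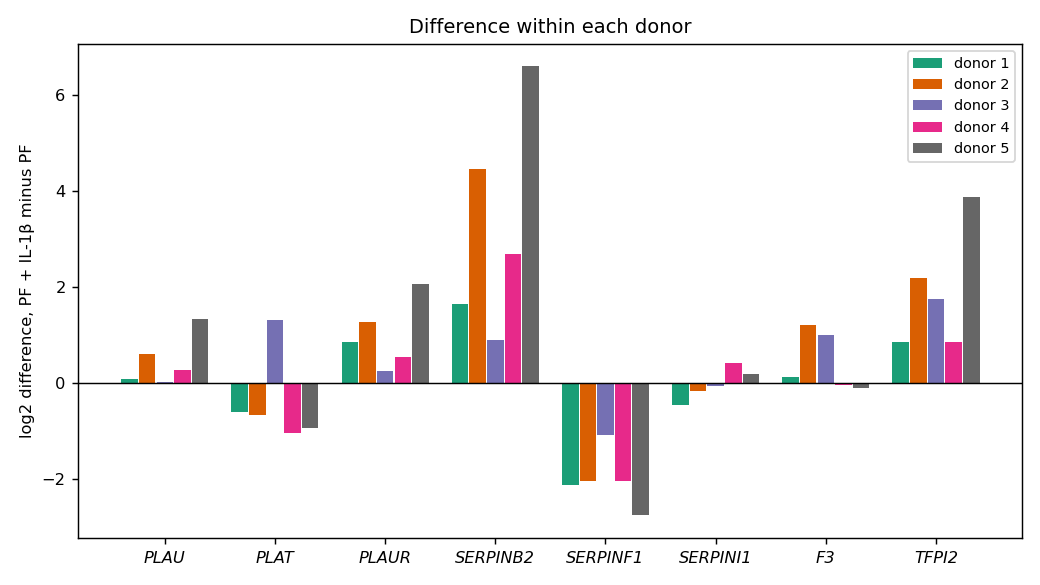
Log2 difference between PF + IL-1β and PF within each of 5 donors for 8 genes, as bars from 0. Donor 5 (grey) has the tallest bars for PLAU, PLAUR, SERPINB2 and TFPI2, up to 6.60, and the deepest for SERPINF1, at -2.76.

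Among the tested genes with a symbol other than a LOC number, those with the most similar pattern were sought over the 10 libraries, measured by the root-mean-square difference of log2 values after each gene was centred on its own mean. PLAUR was nearest to GSR, the glutathione reductase gene (0.15), and SLC23A2, a vitamin C transporter gene (0.18). GSR had a Log2FC of 1.03 and SLC23A2 of 0.93. SERPINF1 was nearest to CYTH3, which encodes an exchange factor for ARF GTPases (0.17, Log2FC -1.92), and PMP22, a membrane protein gene of myelin (0.29, Log2FC -1.95). For SERPINB2 the nearest gene was NETO1, at 0.74. The values were not scaled, so a gene with a wide spread has larger distances, and distances cannot be compared between the 3 genes. A Log2FC near that of the gene itself follows from how its neighbours were chosen.

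Of 21 other listed genes that bind plasminogen or control its activators, 20 were in the table and 14 were tested. Of these, 2 were differentially expressed, both lower with PF + IL-1β, where 6.68% of all tested genes were called and 3.57% were lower. The median Log2FC was -0.08, against -0.01 over all tested genes. VLDLR, a receptor that takes up complexes of urokinase and its inhibitors, fell from 12.94 ± 0.52 to 11.73 ± 0.30 (SD, n = 5), a Log2FC of -1.21 (adjusted p = 0.00671 from limma). F12, the zymogen of the contact system, fell from 8.78 ± 0.55 to 7.72 ± 0.28 (Log2FC -1.06, adjusted p = 0.0189 from limma). VLDLR was called in all 10 fits without 1 library and all 5 without 1 donor, and F12 in 6 of 10 without a library and 1 of 5 without a donor. These fits had no donor block. With the block, adjusted p over all libraries was 6.76e-04 for VLDLR and 0.00574 for F12 (limma). ENO1, a glycolytic enzyme that also binds plasminogen, had the highest level of the genes not called (Log2FC 0.07, adjusted p = 0.867). LRP1 and MRC2, both endocytic receptors, were chosen after their values were seen and were lower in 5 of 5 donors. Each had a Log2FC of -0.91, with adjusted p from limma of 0.116 and 0.0755, and of 0.0176 and 0.0125 with the donor block. Plasminogen itself (PLG) was not tested, with at most 2.33 normalized counts in any library.

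Of 29 other serpins listed, 25 were in the table and 13 were tested. Of these, 1 was differentially expressed, which is near the share over all tested genes (6.68%). SERPINB5 (maspin) was the gene called among them, from 5.47 ± 0.70 to 3.96 ± 0.80 (SD, n = 5), a Log2FC of -1.51 (adjusted p = 0.0344 from limma) that rests on at most 64.3 normalized counts. It was at 0 reads in 3 libraries with PF + IL-1β. The call without the donor block was kept in 4 of 10 fits without a library. With the block its adjusted p over all libraries was 0.0199 from limma. With the donor block SERPINB10, named after its values were seen, was called too, which made 2 of 13, against 8.26% of all tested genes. It rose from 4.68 ± 1.00 to 6.80 ± 2.28 and was higher in 4 of 5 donors (Log2FC 2.12, adjusted p = 0.164 from limma, and 0.0322 with the block). SERPINH1, the collagen chaperone, had the highest level of those not called (Log2FC -0.27, adjusted p = 0.501). The median Log2FC of the 13 was 0.18, against -0.01 over all tested genes.

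Of 26 genes of coagulation and its receptors, all were in the table and 13 were tested. Of these, 4 were differentially expressed, 1 higher and 3 lower with PF + IL-1β, where 6.68% of all tested genes were called (3.11% higher and 3.57% lower). The median Log2FC was -0.26, against -0.01 over all tested genes. TFPI, the inhibitor of tissue factor and factor VIIa, rose from 8.05 ± 1.09 to 10.61 ± 1.17 (SD, n = 5), a Log2FC of 2.57 (adjusted p = 0.0167 from limma, and 2.45e-04 with the donor block). It was higher in 5 of 5 donors, by between 2.28 and 3.48, and the call without the block was lost without donor 1 (adjusted p = 0.0641). F2R, the thrombin receptor, fell from 11.99 ± 0.82 to 10.57 ± 0.54 (Log2FC -1.42, adjusted p = 0.0271 from limma). GAS6, a vitamin K-dependent ligand of receptor tyrosine kinases, fell from 13.61 ± 0.34 to 12.56 ± 0.50 (Log2FC -1.04, adjusted p = 0.0145 from limma), and like F2R was called in 6 of 10 fits without a library. F5, the cofactor of factor Xa, was between 4.34 and 6.47 with PF, at most 68.2 normalized counts, and was at 0 reads in 4 of 5 libraries with PF + IL-1β (Log2FC -1.62, adjusted p = 0.00878). VKORC1, which recycles vitamin K, had the highest level of those not called (Log2FC 0.32, adjusted p = 0.168). Without donor 5, the adjusted p of all 4 passed 0.05 in limma (0.0501 for F5, 0.0828 for TFPI, 0.0694 for GAS6 and 0.0598 for F2R). The fits without a library or donor for these 4 genes had no donor block. With the block and all donors, adjusted p from limma was 0.00963 for F5, 0.0183 for GAS6 and 0.00686 for F2R.

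**Figure D5:**
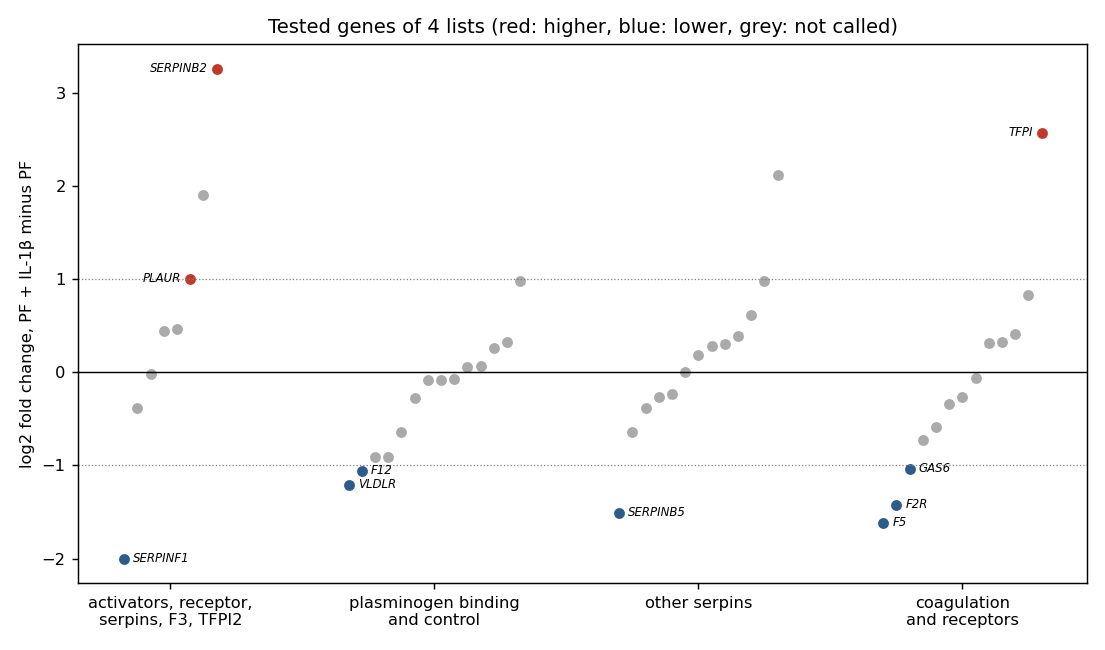
Log2FC of PF + IL-1β against PF for the tested genes of 4 lists, ordered within each list. Red points were differentially expressed and higher, blue ones lower, grey ones not called, and dotted lines mark -1 and 1. SERPINB2 (3.26) and TFPI (2.57) lie highest among the called genes and SERPINF1 (-2.00) lowest, on the deposited scale that is drawn. F5 lies at -1.62 and SERPINB5 at -1.51. On the back-transformed scale, not drawn, F5 (-3.80) and SERPINB5 (-3.31) are below SERPINF1, but these values depend on the pseudocount.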

How the data were processed

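RNA of 10 libraries was sequenced with 150 bp paired-end reads, 31200000 to 41400000 per library per the labels. The authors assigned reads to the EquCab3.0 transcriptome with Salmon (version 1.8, with GC-bias correction), summed them to genes with tximport and used DESeq2 (version 1.36). The authors deposited log2 values for 29196 genes, normalized between libraries. The transformation is not given in the sources used here and was taken to be variance-stabilizing from the shared lowest value (3.43). Normalized counts were obtained by inverting it, so they are approximate and carry no depth of a single library.

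A gene was tested if 5 or more of the 10 libraries exceeded the lowest value. The fit used limma 3.58.1 under R 4.3.3, let the variance follow the mean, and had no term for the donor because the study names none. All adjusted p-values are from limma with Benjamini-Hochberg adjustment over 17992 genes. The replicate number marks the donor, so the libraries are paired by design, and their deviations from the group means correlated at 0.367 to 0.506 over genes within donors. Tested on simulated data of 17992 genes, 198 of 200 changed genes and 0 unchanged genes were called. The simulation had 1 dispersion for all genes, no donor effect and only changes well above the minimum fold change, in genes that were not near 0. It therefore cannot tell how the fit performs for genes that vary between donors or lie near the minimum fold change. The genes, lists and tests were chosen with earlier results of these data known. Named were the 8 genes, the called genes and highest uncalled gene of each list, and the 2 nearest genes of each called member. Blocked fits without a donor were chosen after seeing the values. Some genes that this rule names are not reported here. Ratios to SERPINE2, sequences and positions are not given. Alternatives were the donor block, the back-transformed scale with a pseudocount of 1, other centring, filters and variance models, no minimum fold change, and leaving out libraries or donors.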

Additional observations from a re-analysis of the deposited data

Results flagged for a closer look

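Of 46 groups of 5 libraries examined, from 23 named genes in both groups, 2 held a library far from the other 4, where chance gives about 2.3. Neither was among the 8 genes of the set. F5 was at 3.90 in donor 3 with PF + IL-1β, 1.16 normalized counts, against 3.43, the value of 0 reads, in the other 4 libraries. NETO1 was at 6.11 in donor 2 with PF, against 4.75 to 4.90 in the others.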

How the results depend on the processing

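Of 23 named genes, 9 kept their direction and call under every alternative run, among them SERPINF1, PLAU, PLAT and F3, and 9 lost a call under at least 1. Over all tested genes, 1202 were called, 1486 with the replicate block, 2782 without a minimum fold change and 3996 when that was combined with the replicate block, and between 762 and 1422 when a library or donor was left out. The genes of the set called numbered 3, 4 with the replicate block, and between 1 and 3 when a library or donor was left out. For plasminogen binding and control the count was 2, but 4 under array weights, 4 when the replicate block was combined with no minimum fold, and 1 to 4 in the leave-out fits. For the other serpins it was 1, but 2 with the replicate block, with array weights and without a minimum fold change, 3 for the block combined with no minimum fold, 0 under the stricter filter, which leaves SERPINB5 untested, and 0 to 1 in the leave-out fits. Without a minimum fold change the added serpin was SERPINB8 (Log2FC 0.62, adjusted p = 0.0471 from limma) and not SERPINB10. For coagulation the count was 4, and 0 to 4 in the leave-out fits. The direction of SERPINI1 turned under median centring (0.0098), and in the leave-out fits it ranged from -0.138 to 0.0911, and that of ENO1 from -0.0080 to 0.179. The replicate block added calls for TFPI2, NETO1, SERPINB10 and the markers COL1A1, COL1A2, LAPTM5 and ACTA2, and changed that of no other gene named. The cause of these changes was not tested, but a left-out donor removes 2 libraries. The deposited scale compresses low values: on the back-transformed scale the Log2FC was -3.80 for F5, -3.31 for SERPINB5, 3.73 for SERPINB2 and 2.35 for TFPI2, and those of F5 and SERPINB5, at 0 in most libraries with PF + IL-1β, depend on the pseudocount.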
